A study of Mus musculus with 74 samples.

Results

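Matrix metalloproteinases and the proteins that inhibit them are represented here by 8 of the 30323 genes in the count table: the proteases Mmp2, Mmp11, Mmp14 and Mmp15, the tissue inhibitors of metalloproteinases Timp1, Timp2 and Timp3, and the membrane-anchored inhibitor Reck. They were taken by name, with earlier results of these data known, and all 8 have a row in the table. All 8 were detected in at least 10% of cells, as were only 3 of 20 further genes of the family. Their levels were followed over 74 single cells sorted from the pro-epicardial organ of C57BL/6 mouse embryos at embryonic day 9.5, the transient outgrowth of mesothelial cells that gives rise to the epicardium. All cells carried Tbx18Cre, a Cre recombinase under the control of Tbx18, and the membrane reporter mTmG, and were sorted by flow cytometry, so they stand for cells with a history of Tbx18 activity and not for the whole organ. There is a single group, with no treatment and no control genotype. The number of embryos behind it is not stated, and the 74 cells were treated as 1 sample without replicates.

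Matrix metalloproteinases are zinc enzymes that cut collagens, laminins and other proteins around the cell, and most are made as inactive proenzymes. TIMPs bind active enzymes and block them, and Reck does so from the cell surface. One arrangement uses both sides at once: Mmp14 on the membrane holds a Timp2 molecule, which in turn holds the proenzyme of Mmp2, and a neighbouring free Mmp14 then cuts it into the active form. In development these enzymes are known for letting mesothelial and mesenchymal cells leave an epithelium and move through matrix. Transcript levels do not show how much of an enzyme is active.

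The median cell held 849718 estimated counts (range 216177 to 2618538), and 5 counts, the number at which a gene was called detected, stood for 5.89 CPM, a scale that gives each cell an equal total, in the median cell (range 1.91 to 23.1 CPM). Clusters rebuilt without the 8 genes, Col1a1 and Podxl held 32, 32 and 10 cells. An epicardial-like cluster of 32 cells had 14 of 15 epicardial and mesothelial markers, each found in 50% of its cells or more, and was led by Tm4sf5, Vwa1 and Lhx9. A second cluster of 32 cells, led by Lhx2, Tmem119 and Shisa3, had 8 of those 15 markers and 5 of 8 markers of septum transversum mesenchyme, and was left without a cell type name. The 10 cardiomyocyte-like cells had 10 of 13 cardiomyocyte markers and were led by muscle genes such as Myh6 and Csrp3. The septum transversum markers were not particular to the Lhx2-led cells, as the epicardial-like and the cardiomyocyte-like cells each had 4 of 8. Their summed level had a median of 843 CPM in Lhx2-led, 195 CPM in epicardial-like and 1594 CPM in cardiomyocyte-like cells. Over all 74 cells 11 of those 15 markers were found in 50% of cells or more, from Tbx18 in 69 cells, Tcf21 in 63 and Wt1 in 60 to Upk3b in 34 and Aldh1a2 in 18. Markers of other cell types were mixed. The endothelial genes Cdh5, Tie1 and Emcn were detected in no cell, but Pecam1 in 62, Tek in 52, Flt1 in 26 and Kdr in 8. The leukocyte genes Fcer1g and Tyrobp were detected in no cell, but Cd68 in 10, Csf1r in 4 and Ptprc in 2. The hepatoblast genes Afp, Hnf4a and Foxa2 were detected in no cell, but Alb in 20 and Ttr in 7, and the haemoglobin gene Hba-a2 was detected in 45.

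Mmp14 was the protease shared by every cell, while Mmp2, Mmp11 and Mmp15 came and went between cells. Mmp14, the membrane-type collagenase that also activates Mmp2 (ENSMUSG00000000957, GRCm38 chromosome 14, 54431612 to 54445364, plus strand), was detected in 74 of 74 cells (exact 95% interval for counting cells 95.1% to 100%). Its lowest level was 15.6 CPM, its median 177 CPM and its highest 523 CPM, with a mean of 198 ± 106 CPM (SD over 74 cells here and below). No cell lacked it, and its SD was 0.533 of its mean, the smallest such ratio of the 8 genes.

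Mmp2, the secreted gelatinase A, which cuts denatured collagen and type IV collagen (ENSMUSG00000031740, chromosome 8, 92827291 to 92853420, plus strand), was detected in 51 cells (68.9%, interval 57.1% to 79.2%). It ranged from 0 CPM through a median of 34.4 CPM to 622 CPM, with a mean of 88.2 ± 126 CPM. A group of 20 cells had no Mmp2 count at all, while 25% of cells lay above 130 CPM, so cells of high and cells of no measured Mmp2 stood side by side.

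Mmp11, or stromelysin-3, is cleaved to its active form inside the cell by furin-type convertases (ENSMUSG00000000901, chromosome 10, 75923222 to 75936496, minus strand). It was detected in 61 cells (82.4%, interval 71.8% to 90.3%), from 0 CPM through a median of 35.4 CPM to 264 CPM. Its exons share 155 bases with those of Chchd10 on the opposite strand, which was detected in 25 cells at a mean of 37.3 CPM. Reads of both genes cannot be told apart there, because the use of strand in counting is not given.

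Mmp15, a second membrane-type enzyme (ENSMUSG00000031790, chromosome 8, 95352268 to 95375080, plus strand), sat at the edge of detection. It was detected in 26 cells (35.1%, interval 24.4% to 47.1%), from 0 CPM through a median of 2.95 CPM to 33.0 CPM. With at least 1 count as the mark it was present in 51 cells, and with at least 10 counts in 8, so the number of cells with Mmp15 depended strongly on the count required.

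Among the inhibitors, Timp2 was the most widely detected and Timp3 the most uneven. Timp2, which both inhibits proteases and takes part in the activation of Mmp2 (ENSMUSG00000017466, chromosome 11, 118301069 to 118355740, minus strand), was detected in 65 cells (87.8%, interval 78.2% to 94.3%). Its lowest, median and highest levels were 0, 59.9 and 330 CPM. Only 5 cells had no Timp2 count.

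Timp1, a soluble inhibitor that is weak against membrane-type enzymes such as Mmp14 (ENSMUSG00000001131, chromosome X, 20870166 to 20874735, plus strand), was detected in 49 cells (66.2%, interval 54.3% to 76.8%). It ranged from 0 CPM through a median of 18.0 CPM to 132 CPM. The gene lies within Syn1 on the other strand, which was detected in 3 cells.

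Timp3, the inhibitor that stays bound to the matrix and also blocks several ADAM and ADAMTS enzymes (ENSMUSG00000020044, chromosome 10, 86300372 to 86349506, plus strand), was detected in 34 cells (45.9%, interval 34.3% to 57.9%). Its levels ran from 0 CPM through a median of 2.95 CPM to 166 CPM, and its SD was 1.56 times its mean of 26.4 CPM. It shares 1733 exon bases with Syn3 on the opposite strand, and Syn3 itself was detected in 4 cells at a mean of 1.35 CPM.

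Reck, a glycosylphosphatidylinositol-anchored inhibitor of Mmp2 and Mmp14 (ENSMUSG00000028476, chromosome 4, 43875530 to 43944806, plus strand), was detected in 58 cells (78.4%, interval 67.3% to 87.1%). The lowest cell had 0 CPM, the median cell 53.9 CPM and the highest 234 CPM. A count of 9 cells lacked it altogether.

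Levels can be set against each other between genes only after division by transcript length. In CPM per kilobase of the longest annotated transcript, the medians fell in the order Mmp14 (54.8), Timp1 (20.4), Timp2 (16.2), Mmp11 (15.5), Reck (11.8), Mmp2 (11.2), Timp3 (0.624) and Mmp15 (0.574). The interquartile range of each gene overlapped that of the next in this order, so no neighbouring pair was separated beyond the spread over cells. Mmp14 exceeded Timp1 in 58 of 74 cells, Timp2 in 69 and Mmp11 in 68 on the per-kilobase scale. On that scale its interquartile range lay above those of Timp2, Mmp11, Reck, Timp3 and Mmp15. This rests on the length chosen, as the longest Mmp14 transcript has 3238 bases and all its exons together 5960. With exon-union lengths for all genes, its interquartile range would overlap those of Timp2, Mmp11 and Reck. Between Timp1 and Timp2 the order was mixed, with Timp1 higher in 43 cells.

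The region upstream of the start is given for Mmp14 and Reck, a protease and an inhibitor that both went with Col1a1, and for Timp1, whose relation to Col1a1 was weak (values below). Each line holds 250 bases before the RefSeq start, 5′ to 3′ on the gene's strand, in GRCm38.p6, and capitals mark GC boxes (GGGCGG on either strand). The Mmp14 window is chr14:54431348-54431597 (plus), the Reck window chr4:43875280-43875529 (plus) and the Timp1 window chrX:20869916-20870165 (plus).
Mmp14: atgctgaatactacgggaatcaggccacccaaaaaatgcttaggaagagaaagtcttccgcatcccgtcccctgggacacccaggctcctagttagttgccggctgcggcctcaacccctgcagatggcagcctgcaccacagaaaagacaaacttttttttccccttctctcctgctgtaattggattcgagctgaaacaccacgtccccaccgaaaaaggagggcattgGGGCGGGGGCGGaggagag
Reck: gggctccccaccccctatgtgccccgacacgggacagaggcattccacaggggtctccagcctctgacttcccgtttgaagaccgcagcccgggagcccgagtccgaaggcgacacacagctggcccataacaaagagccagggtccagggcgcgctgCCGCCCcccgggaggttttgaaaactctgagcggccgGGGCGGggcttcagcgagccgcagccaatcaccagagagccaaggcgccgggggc
Timp1: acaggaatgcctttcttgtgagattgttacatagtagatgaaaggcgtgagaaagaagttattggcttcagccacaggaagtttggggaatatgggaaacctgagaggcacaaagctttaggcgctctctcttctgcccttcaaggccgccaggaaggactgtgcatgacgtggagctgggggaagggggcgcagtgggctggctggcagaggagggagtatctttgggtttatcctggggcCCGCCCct
RefSeq promoter entries matched 7 of the 8 genes. All 7 windows held at least 1 GC box, with 2 each in Mmp14, Reck and Mmp11, against 32.7% of 32851 windows of the same length and 59.1% of the 11466 windows of genes detected in at least 10% of cells. The windows of Timp2, Timp3 and Mmp15 run into exons of the same gene, by 203, 40 and 28 bases. The 7 windows were 54.4% to 68.4% G and C, beside medians of 52.4% over all windows and 60.4% over those of detected genes. The letters of an AP-1 site (TGANTCA), searched on both strands, were in none of the 7 windows and in 3.92% of the windows of detected genes. The same held for the letters of a TATA box (TATAAA), which 5.98% of those windows contained. A match is a stretch of letters and does not show a bound site.

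**Figure D1:**
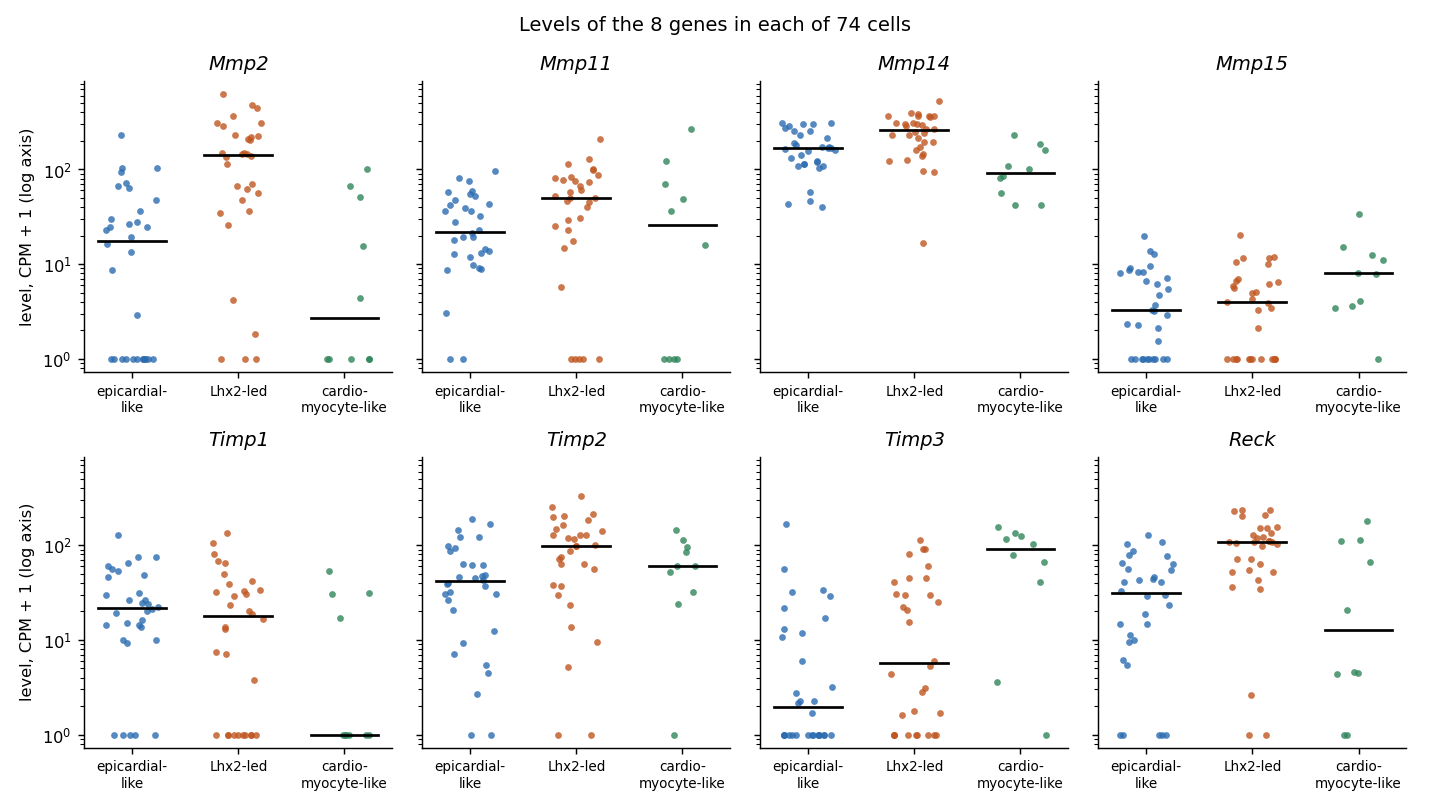
Level of each of the 8 genes in each of 74 cells, as CPM + 1 on a log axis, with 1 point per cell, cells split by cluster on the horizontal axis and a bar at the cluster median. Mmp14 is at 15.6 CPM or more in every cell, Mmp2 and Reck sit highest in the Lhx2-led cluster, and 8 of the 10 cardiomyocyte-like cells hold Timp3 at 39.8 CPM or more.

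The summed protease level was higher than the summed TIMP level in most cells. Adding Mmp2, Mmp11, Mmp14 and Mmp15 per kilobase gave 110 ± 69.4 CPM per kb, against 55.3 ± 39.4 CPM per kb for Timp1, Timp2 and Timp3 together. The proteases' share of both sums, the protease share, was 22.6% in the lowest cell, 65.7% in the median cell and 100% in the highest. It exceeded 50% in 61 of 74 cells (82.4%, interval 71.8% to 90.3%), passed 90% in 7 and fell under 25% in 1. This share compares transcripts and says nothing of how many inhibitor molecules face each enzyme. The share covers the 4 chosen proteases and not the whole family. Mmp23, a further family gene left out of the sum, averaged 34.8 CPM per kb, above Mmp2 (28.7) and Mmp11 (19.1).

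Mmp14 made up 55.7% of the protease level summed over cells and was the highest protease in 60 of 74 cells. Mmp2 supplied 26.1% and led in 8 cells, Mmp11 supplied 17.4% and led in 6, and Mmp15 supplied 0.823% and led in none. On the inhibitor side Timp1 supplied 52.6% and led in 40 of the 72 cells with any TIMP count, Timp2 supplied 37.3% and led in 27, and Timp3 supplied 10.1% and led in 5. Summed over cells, Mmp14 and Mmp2 thus led the protease side, and Timp1 and Timp2 the TIMP side. Cell by cell Mmp2 was little above Mmp11, with median parts of the protease level of 15.4% and 13.6%. By cluster, Mmp11 supplied more than Mmp2 in epicardial-like and in cardiomyocyte-like cells, and less in Lhx2-led cells. Among the clusters, Timp3 supplied more than Timp1 only in cardiomyocyte-like cells (34.8% against 29.3% of the TIMP level).

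The cells at the ends of the range were unlike each other. The cell of lowest protease share was epicardial-like and among the shallower libraries (237278 counts), with 126 CPM of Timp1 and 114 CPM of Mmp14. Of the pair of cells at 100%, neither of which had a TIMP count, the epicardial-like one had 189 CPM of Mmp14. The other, in the Lhx2-led cluster, had 15.6 CPM of Mmp14, the lowest of all cells, and no Reck count, so a share of 100% covered both a high and a very low protease level.

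Nearly all cells combined proteases with inhibitors. All 4 proteases were detected in 18 cells, 3 in 31, 2 in 22 and 1 in 3. All 3 TIMPs were detected in 19 cells, 2 in 40, 1 in 11 and none in 4. The whole set of 8 genes was detected together in 5 cells.

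The components of the Mmp2 activation step were present together in most cells. Mmp2, Mmp14 and Timp2 were detected in the same cell in 46 of 74 cells (62.2%, interval 50.1% to 73.2%), against 44.8 cells if the 3 were independent, a ratio of 1.03. As Mmp14 was in every cell, this is the ratio of Mmp2 and Timp2 alone, and because Timp2 was so frequent it could not exceed 1.14. With Reck added, 38 cells held all 4 genes, against 35.1 under independence, a ratio of 1.08. The 7 pairs with Mmp14 have a ratio of 1 by construction, and over the 21 other pairs it ran from 0.933 (Timp1 and Timp3) to 1.13 (Mmp2 and Timp1). For the genes found in most cells, the ratio had little room to rise above 1.

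Col1a1, the main chain of type I collagen, was detected in 51 cells, from 0 CPM through a median of 50.0 CPM to 1140 CPM. Podxl, the sialomucin podocalyxin of the apical surface of mesothelial cells, was detected in 57 cells, from 0 CPM through a median of 151 CPM to 1648 CPM. The 2 genes ran against each other, with Spearman's rho of -0.47 over the 74 cells. Rank correlations here are descriptions over 74 cells of 1 sample that share cluster membership and library depth, and carry no test. The rank correlation with the total count of the cell was 0.23 for Col1a1 and -0.18 for Podxl.

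Mmp14, Mmp2 and Timp2 had the 3 highest rank correlations with Col1a1 among the 8 genes. The rank correlation with Col1a1 was 0.53 for Mmp14, 0.52 for Mmp2, 0.47 for Timp2 and 0.35 for Reck (Pearson's r of log2(CPM + 1) 0.56, 0.50, 0.38 and 0.31). Of the 11510 other genes detected in at least 10% of cells, 0.0869% had a rho with Col1a1 at least as high as Mmp14 and 0.0956% one at least as high as Mmp2. The other 4 genes were close to the bulk of genes, at 0.16 for Mmp11, 0.16 for Timp1, 0.01 for Timp3 and -0.18 for Mmp15. Over all those genes the median was 0.02, and 5% and 95% of them lay below -0.23 and 0.26.

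Reck and Mmp2 ran most against Podxl. The rank correlation with Podxl was -0.47 for Reck and -0.42 for Mmp2, and 0.921% and 1.63% of genes had one as low. It was -0.26 for Mmp14, -0.24 for Mmp11, -0.23 for Timp2, -0.19 for Timp3, -0.02 for Mmp15 and 0.04 for Timp1. Timp1 was the 1 gene of the 8 with a positive value, beside 52.2% of all genes.

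**Figure D2:**
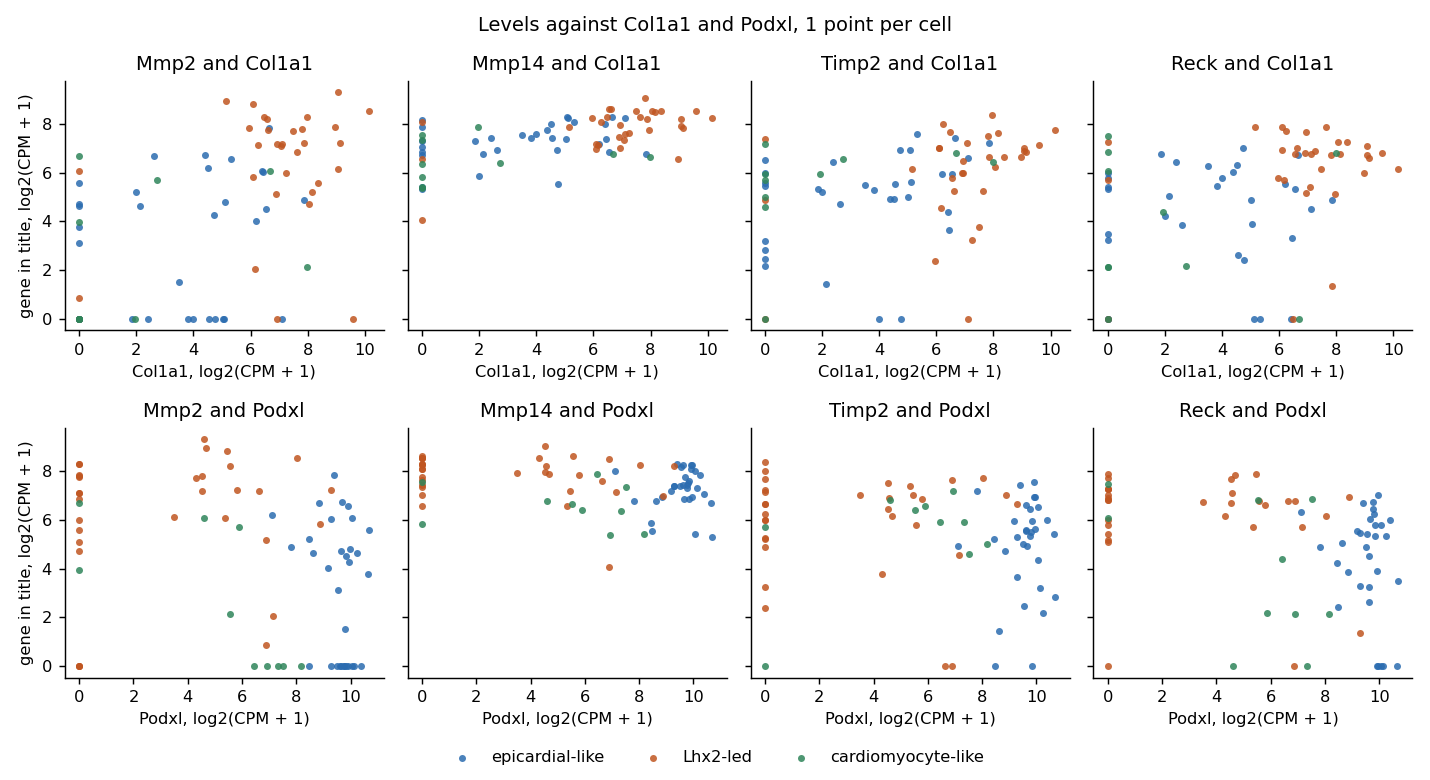
Mmp2, Mmp14, Timp2 and Reck (vertical axes) against Col1a1 (upper row) and Podxl (lower row), all as log2(CPM + 1), with 1 point per cell coloured by cluster. The Lhx2-led cells gather at high Col1a1 and low Podxl, the epicardial-like cells at high Podxl, and points on the axes are cells with no count.

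Much of this lay between clusters. In the 32 epicardial-like and the 32 Lhx2-led cells taken alone, rho of Mmp2 with Col1a1 was 0.24 and 0.10, and that of Reck was -0.06 and -0.01. For Mmp14 it was 0.37 and 0.34, and for Timp2 0.39 and 0.33, so these 2 genes kept a positive value inside both clusters. The rank correlation of Reck with Podxl was -0.14 and -0.16 inside the clusters, and that of Mmp2 was -0.20 and 0.14, of opposite sign.

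Timp1 and Timp3 showed the reverse, with values inside a cluster that the whole set of cells did not show. The rank correlation of Timp1 with Col1a1 was 0.42 and with Podxl -0.37 in the epicardial-like cells, beside 0.05 and 0.08 in the Lhx2-led cells. Timp3 had a rho of 0.34 with Podxl in the Lhx2-led cells and of -0.13 in the epicardial-like cells. With 32 sparse cells in each cluster, these within-cluster values are weak and are given as values only.

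**Figure D3:**
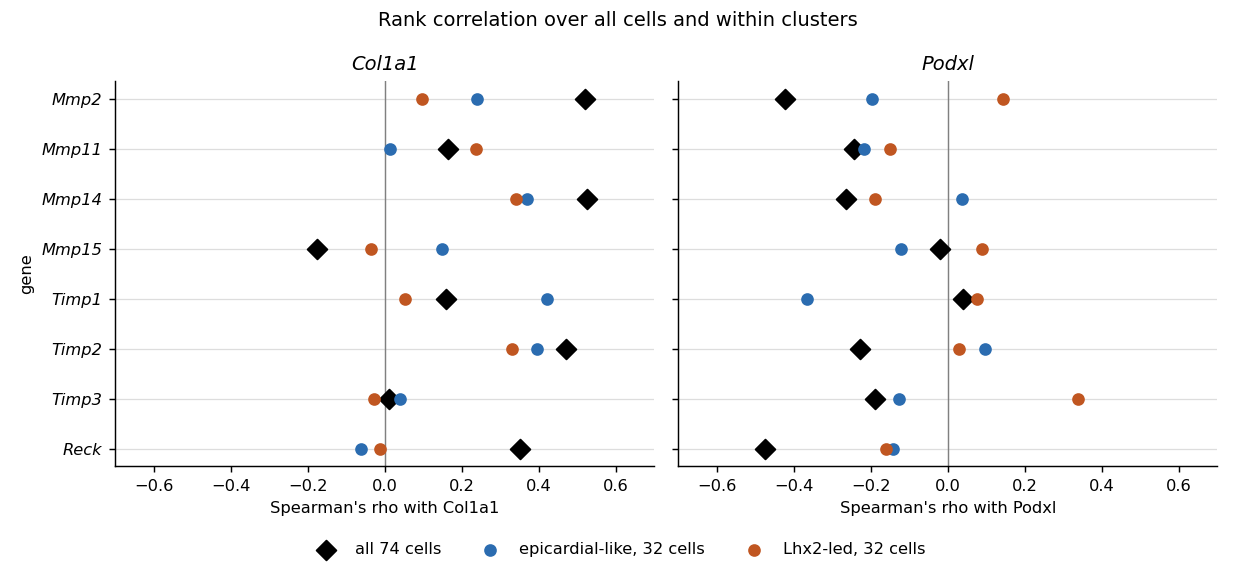
Spearman's rho of each of the 8 genes with Col1a1 (left) and with Podxl (right); diamonds are all 74 cells and circles the 32 epicardial-like and 32 Lhx2-led cells taken alone. Mmp14 and Timp2 stay right of 0 for Col1a1 in both clusters, whereas Reck moves close to 0.

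The 37 cells of highest Col1a1 (61.2 to 1140 CPM) carried more Mmp2, Timp2, Reck and Mmp14 than the other 37 (0 to 38.8 CPM). Mmp2 in the Col1a1-high cells ran from 0 through a median of 114 to 622 CPM, against 0, 1.91 and 484 CPM in the Col1a1-low cells. The groups overlapped, but 32 Col1a1-high cells had Mmp2 detected and 19 Col1a1-low cells did, and the means of 141 ± 141 and 35.4 ± 82.8 CPM were 3.99-fold apart. That fold was 6.16 without the 1 Col1a1-low cell of 484 CPM, 2.38 without the cardiomyocyte-like cells and 6.18 between the highest and the lowest tertile of Col1a1, and the fold of medians of CPM + 1 was 39.4. Timp2 had a median of 97.5 CPM in Col1a1-high cells and 38.8 CPM in Col1a1-low cells, with means of 102 ± 74.6 and 50.5 ± 47.2 CPM, 2.03-fold apart. That fold sat on the 2-fold mark: it ended under 2 when any 1 of 17 cells was left out (1.90 to 1.998), and was 1.9995 without the cardiomyocyte-like cells.

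Mmp2 and Timp2 were thus 2 of 8 genes at least 2-fold higher in Col1a1-high cells, where 5.01% of the 11510 other genes were, and 0 of 8 were 2-fold lower, where 4.63% were. The median log2 fold was 0.63 over the 8 genes and 0.04 over all genes. Reck was 1.86-fold higher (89.4 ± 64.1 against 48.1 ± 55.0 CPM) and reached 2.01- or 2.07-fold when 1 of 2 cells was left out. Mmp14 was 1.62-fold higher (245 ± 106 against 151 ± 83.0 CPM). Timp1 (1.47-fold), Mmp11 (1.15-fold), Timp3 (1.06-fold) and Mmp15 (0.615-fold) lay under the mark. Col1a1-high cells were 7 epicardial-like, 28 Lhx2-led and 2 cardiomyocyte-like cells, and Col1a1-low cells were 25, 4 and 8 of these, so the level of Col1a1 and the cluster cannot be told apart in these folds. A span of 2-fold around the dividing level held 20 cells.

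Dividing the cells by Podxl gave a reduction of Mmp2, Reck and Timp3 in the Podxl-high cells. Mmp2 had a lowest, median and highest level of 0, 15.3 and 366 CPM in the 37 cells of highest Podxl (161 to 1648 CPM), against 0, 71.7 and 622 CPM in the other 37 (0 to 141 CPM). Its means were 40.9 ± 73.6 and 135 ± 149 CPM, a fold of 0.302 (0.179 between the highest and the lowest tertile of Podxl). Reck ran from 0 through 28.8 to 127 CPM in Podxl-high cells, against 0, 106 and 234 CPM in Podxl-low cells, with means of 38.96 ± 38.6 and 98.5 ± 68.6 CPM, a fold of 0.395. The groups overlapped for both genes, and the Podxl-low median of Reck was close to the highest Podxl-high cell.

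Timp3 averaged 15.7 ± 27.2 CPM in Podxl-high cells and 37.0 ± 49.6 CPM in Podxl-low cells, a fold of 0.425, which was 0.551 once every cell was thinned to the same depth and 0.146 with medians of CPM + 1. It was detected in 13 Podxl-high and 21 Podxl-low cells. So 3 of 8 genes were 2-fold lower in Podxl-high cells, where 9.07% of all genes were, and 0 of 8 were 2-fold higher, where 5.45% were. Mmp14 (0.740), Mmp11 (0.714), Timp2 (0.649), Mmp15 (1.17) and Timp1 (1.23, with 27 Podxl-high and 22 Podxl-low cells detected) stayed within 2-fold. Podxl-high cells were 31 epicardial-like, 3 Lhx2-led and 3 cardiomyocyte-like cells, and Podxl-low cells 1, 29 and 7, so here too the cluster and the level cannot be told apart.

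Both genes at once separated Mmp2 furthest. The 27 cells high in Col1a1 and low in Podxl had a median of 137 CPM of Mmp2 with 23 cells detected, and the 27 cells low in Col1a1 and high in Podxl had a median of 0 CPM with 13 detected. The 10 cells high in both had 59.6 CPM and the 10 cells low in both 32.6 CPM. By median, Timp2 was higher in Col1a1-high cells whichever way Podxl lay, at 97.7 and 97.5 CPM for high and low Podxl. In the Col1a1-low cells its medians were 37.9 and 55.6 CPM. The medians of Reck went more with Podxl, at 34.2 and 28.4 CPM in the Podxl-high cells of high and low Col1a1, against 107 and 58.5 CPM in the Podxl-low cells. Spreads were wide: the 10 cells low in both averaged 64.0 ± 55.7 CPM of Timp2 and 77.8 ± 81.2 CPM of Reck. Cluster and level cannot be told apart here either.

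The balance of both sides differed by less than the spread over cells whichever gene divided them. The protease share had a median of 66.8% in Col1a1-high cells and 64.9% in Col1a1-low cells, and of 62.9% in Podxl-high cells and 67.9% in Podxl-low cells, with SDs over cells of 16.1 to 19.8 percentage points. The rank correlation of the share was 0.05 with Col1a1 and -0.11 with Podxl. Both sums were higher in Col1a1-high cells: proteases at 143 ± 74.3 against 77.1 ± 45.1 CPM per kb (1.85-fold), and TIMPs at 68.0 ± 39.7 against 42.5 ± 35.2 CPM per kb (1.60-fold). By Podxl the proteases differed more than the TIMPs, at 82.3 ± 47.5 in Podxl-high and 138 ± 77.1 CPM per kb in Podxl-low cells (0.598) for proteases, and 51.6 ± 41.1 and 59.0 ± 37.7 CPM per kb (0.875) for TIMPs. Over all cells rho between the sums was 0.28.

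**Figure D4:**
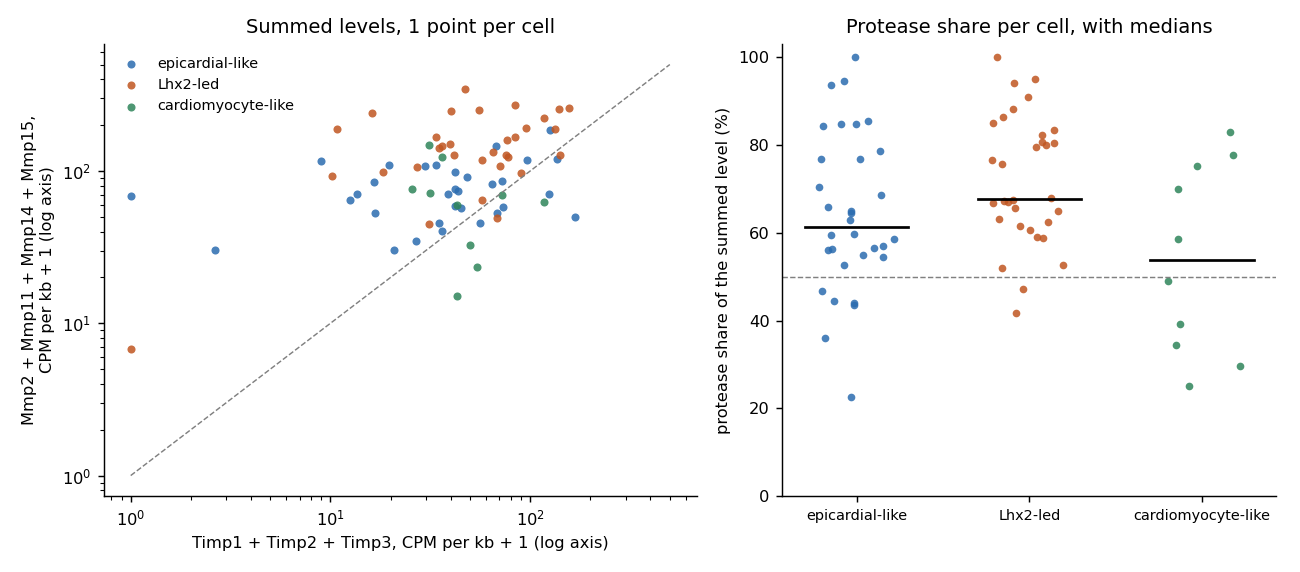
Left, summed protease against summed TIMP level of each cell in CPM per kb + 1 on log axes, with a dashed line of equality; right, protease share of each cell in percent by cluster, with a bar at the median and a dashed line at 50%. Most cells lie above equality, and 5 of the 10 cardiomyocyte-like cells lie at or below it.

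The cluster of highest protease level was the Lhx2-led one. Mmp2 ran there from 0 through a median of 140 to 622 CPM, beside medians of 16.7 CPM in epicardial-like and 1.69 CPM in cardiomyocyte-like cells. Its mean of 165 ± 155 CPM in the 32 Lhx2-led cells was 5.54-fold that of the 42 other cells (29.8 ± 45.1 CPM). Reck averaged 106 ± 66.4 CPM in Lhx2-led cells and 40.7 ± 42.8 CPM in the others, 2.60-fold apart, and was detected in 29 of the 32. These were 2 of 8 genes 2-fold higher, where 6.78% of 11511 genes were, and 0 of 8 were lower, where 5.89% were. Timp2 (1.83-fold) and Mmp14 (1.61-fold, 253 ± 110 against 157 ± 81.4 CPM) were under the mark.

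In the Lhx2-led cells Mmp2 supplied 34.4% of the summed protease level, and in epicardial-like cells 13.3%. Mmp2, Mmp14 and Timp2 were detected together in 25 of 32 Lhx2-led cells, 18 of 32 epicardial-like cells and 3 of 10 cardiomyocyte-like cells. The protease share passed 50% in 30, 26 and 5 cells of these clusters. Its median was 67.7% in Lhx2-led, 61.3% in epicardial-like and 53.7% in cardiomyocyte-like cells.

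Epicardial-like cells were low in Mmp2, Timp3 and Reck. Mmp2 averaged 31.7 ± 47.9 CPM in them and 131 ± 149 CPM in the 42 other cells (fold 0.242), Reck 37.9 ± 35.0 and 92.3 ± 69.3 CPM (0.411), and Timp3 12.4 ± 30.9 and 37.1 ± 45.0 CPM (0.333). That made 3 of 8 genes 2-fold lower, where 10.5% of genes were, and 0 of 8 higher, where 5.12% were. Low Mmp2 and Reck were not particular to epicardial-like cells. Cardiomyocyte-like cells had lower medians of Mmp2 (1.69 against 16.7 CPM) and Reck (11.7 against 30.4 CPM), though a higher mean of Reck (49.6 CPM). Timp3 averaged 23.2 ± 31.5 CPM in Lhx2-led and 81.5 ± 54.1 CPM in cardiomyocyte-like cells, so its fold leaned on the latter. Without the 1 epicardial-like cell of highest Timp3 (166 CPM), the Timp3 fold was 0.199, and it was 0.184 with k-means clusters and 0.168 with clusters from 2000 genes. Timp1 had its highest cluster share there, detected in 25 of 32 cells, and supplied 65.9% of their summed TIMP level, although its mean was 1.25-fold that of the other cells (29.0 ± 28.2 against 23.1 ± 30.3 CPM).

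The 10 cardiomyocyte-like cells had the highest Timp3 and the lowest Mmp2 of the clusters. Timp3 was 0 CPM in 1 of them, 2.55 CPM in another and 39.8 to 156 CPM in the other 8, with a median of 89.7 CPM. The median was 4.66 CPM in Lhx2-led and 0.930 CPM in epicardial-like cells, though single cells of these clusters reached 111 and 166 CPM. The mean of 81.5 ± 54.1 CPM was 4.59-fold the 17.8 ± 31.4 CPM of the 64 other cells, and 4.12- to 5.29-fold when any 1 cell was left out. Timp3 supplied 34.8% of the TIMP level in these cells.

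Markers of muscle move with this result by the way the cluster was formed. The summed cardiomyocyte markers ran from 5881 to 68359 CPM in these 10 cells, against 182 to 11159 CPM in Lhx2-led and 364 to 7140 CPM in epicardial-like cells. The smooth muscle and pericyte markers were also highest there, with a median sum of 7234 CPM, beside 599 CPM in Lhx2-led and 147 CPM in epicardial-like cells. Over all cells rho of Timp3 with the cardiac actin gene Actc1 was 0.42, and 0.25 among the 64 other cells. The part of these markers in the Timp3 level was not tested.

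Mmp2 averaged 23.5 ± 36.1 CPM in cardiomyocyte-like cells and 98.3 ± 132 CPM in the others (fold 0.239, or 0.152 without its highest cell of 101 CPM), and was detected in 4 of the 10. Timp1 averaged 12.8 ± 18.7 and 27.7 ± 30.3 CPM (0.464), and its fold was 0.515 when 1 of 6 cells without Timp1 was left out and 0.306 without its highest cell of 52.0 CPM. Mmp15 averaged 9.09 ± 9.52 and 3.95 ± 4.55 CPM (2.30-fold), 1.63-fold without its highest cell of 33.0 CPM, 1.26-fold with clusters from 500 genes and 1.47-fold with log2(CPM + 10) before clustering. Timp3 and Mmp15 were 2 of 8 genes 2-fold higher, where 8.29% of genes were, and Mmp2 and Timp1 2 of 8 lower, where 17.2% were. Mmp14 was close to that mark at 108.7 ± 64.4 against 212 ± 104 CPM (0.512), and passed it when any 1 of 3 cells was left out. The median log2 fold of all genes in this cluster was -0.15, and Reck (0.691-fold) passed the mark at 0.493 without 1 cell of 177 CPM.

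Most other members of the family were not detected at this depth. Of 20 further genes, 14 were detected in no cell: Mmp1a, Mmp1b, Mmp3, Mmp7, Mmp8, Mmp9, Mmp10, Mmp13, Mmp19, Mmp20, Mmp24, Mmp25, Mmp27 and Timp4. For each, 0 of 74 cells with 5 or more counts allows a share of such cells of up to about 4.05%. This limit was taken as 3 cells of 74 and not as an exact interval, and it is no limit on cells that express the gene. No count at all was found in any cell for 7 of them, while Mmp19, Mmp25 and Timp4 had a count in 4 cells each. The remaining frequent ones were Mmp23 (47 cells, 49.9 ± 69.3 CPM), the membrane-type enzyme Mmp16 (30 cells, 11.9 ± 17.5 CPM) and Mmp28 (24 cells, 15.2 ± 29.4 CPM). Mmp28, or epilysin, was higher where Podxl was high: it averaged 29.0 ± 36.5 CPM in Podxl-high and 1.45 ± 4.97 CPM in Podxl-low cells (20.0-fold), with 21 and 3 cells detected, and 0.180-fold in Col1a1-high over Col1a1-low cells. Mmp23 went the other way by Podxl, at 33.1 ± 43.6 and 66.6 ± 85.2 CPM (0.498).

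Of 26 genes of the ADAM and ADAMTS families, 14 passed the filter of 10% of cells. Many members of these families shed surface proteins or cut proteoglycans and procollagens, but the list was not split by enzyme activity. The most abundant were Adamts1 (131 ± 142 CPM), Adam17, which sheds cytokines and growth factors (49.6 ± 41.5 CPM), and Adamts10 (44.5 ± 47.2 CPM). In Col1a1-high over Col1a1-low cells 4 of 14 were 2-fold higher, where 5.01% of all genes were, and 0 lower, where 4.63% were: Adam23 (10.4-fold), Adamts2, the procollagen N-proteinase (4.80-fold), Adam19 (3.52-fold) and Adam12 (2.22-fold). In Podxl-high over Podxl-low cells Adamts15 was higher (2.63-fold), where 5.45% of all genes were, and 4 of 14 were lower, where 9.07% were, namely Adam23 (0.0811), Adamts2 (0.106), Adamts6 (0.280) and Adam19 (0.353). Adam23 and Adamts6 were sparse, so their folds rest on few cells. Adam23 averaged 7.95 CPM in Col1a1-high and 0.767 CPM in Col1a1-low cells, with 11 and 1 cells detected. Adamts6 averaged 1.66 CPM in Podxl-high and 5.93 CPM in Podxl-low cells, with 3 and 8 cells detected. The median log2 fold of the 14 was 0.61 by Col1a1 and -0.44 by Podxl.

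Of 16 activators and plasminogen-system genes, 11 were compared, and 9 of them stayed within 2-fold in each division. The 1 gene higher and 1 lower of 11 in each are near the share of all genes, 5.01% and 4.63% by Col1a1 and 5.45% and 9.07% by Podxl. Bsg, the surface protein basigin that induces metalloproteinases in neighbouring cells (783 ± 207 CPM), and Cd63, a tetraspanin that binds Timp1 (256 ± 127 CPM), were detected in all 74 cells. Plat, the tissue plasminogen activator, was detected in 68 (285 ± 194 CPM), and Furin, the convertase that activates Mmp14 and Mmp11, in 67 (41.5 ± 50.3 CPM). Serpinf2, the plasmin inhibitor, was detected in no cell. By Col1a1 the urokinase receptor gene Plaur was higher (5.49-fold) and Cd44 lower (0.396), and by Podxl Pcsk5 was higher (3.80-fold) and Serpine2 lower (0.471). Plaur was sparse, at 9.79 CPM in Col1a1-high and 1.78 CPM in Col1a1-low cells, with 13 and 3 cells detected.

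The matrix genes on which these enzymes act, or which process collagen, were followed over 25 genes, led in abundance by Sparc (477 ± 191 CPM), Col3a1 (344 ± 432 CPM) and Fn1 (342 ± 229 CPM). Of the 24 besides Col1a1, 8 were 2-fold higher in Col1a1-high cells, where 5.01% of all genes were: Bgn (9.40-fold), Col3a1 (6.35-fold), Pcolce, which enhances procollagen cleavage (3.35-fold), Col5a1 (3.09-fold), Col1a2 (2.88-fold), Nid1 (2.79-fold), Col6a2 (2.32-fold) and Col5a2 (2.25-fold). Dcn (0.331) and Lama4 (0.237) were lower, where 4.63% of all genes were. By Podxl, Dcn (30.7-fold) and Lama4 (2.48-fold) were higher, and Col1a1, Col5a1, Col6a1, Col6a2, Bgn and Pcolce were lower, at folds from 0.165 to 0.474, where 5.45% of all genes were higher and 9.07% lower. Bgn and Lama4 were sparse, so their folds rest on few cells. Bgn was detected in 11 Col1a1-high and 1 Col1a1-low cells, at 13.7 and 1.46 CPM. Lama4 was detected in 4 and 7 of these cells, at 1.44 and 6.08 CPM. The fold of Dcn by Podxl divides by a mean near the floor. Dcn was detected in 29 Podxl-high and 3 Podxl-low cells, at 81.7 and 2.66 CPM. The list's median log2 fold was 0.27 by Col1a1 and -0.24 by Podxl.

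The genes most alike to each of the 8 in rank over the 74 cells were picked from 7904 others detected in at least 50% of cells, for the 6 genes found in as many cells. For Mmp2 they were Peg3 (rho 0.63), Igfbp4 (0.63) and Alcam (0.56), and for Mmp14 Emilin1 (0.57), Col1a1 (0.53) and Ptn (0.52). Timp2 was most like Cd248 (0.55), Arhgef10 (0.53) and Ror2 (0.49), and Reck most like Eci2 (0.52), Frmd4a (0.51) and H2afv (0.49). Mmp11 was most like Huwe1 (0.48), Snai2 (0.48) and St3gal2 (0.44), and Timp1 most like Orc6 (0.45), Skp2 (0.44) and Selenom (0.43). In each case 95% of genes lay below a rho of 0.21 to 0.26. None of the 8 genes was among the 3 most alike to another of them; the closest pairs within the set were Mmp2 and Mmp14 (0.40) and Mmp14 and Reck (0.37).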

How the data were processed

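RNA of 74 single cells was amplified with SMARTSeq V4 and made into libraries with Nextera XT, per the labels' protocols. The authors deposited whole-number estimated counts (expected counts) per gene, normalised neither for depth nor for length. The submitters' processing notes name kallisto and hg38, while all identifiers are mouse Ensembl IDs. The summing to genes, the rounding, the mapped build and any use of strand are not given in the sources used here. GENCODE M21 (GRCm38) gave symbols to 29936 of 30323 identifiers, and identifiers without one held 0.346% of counts.

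Counts were scaled to CPM, and per kilobase of the longest annotated transcript where genes are compared. Detection in a cell meant 5 counts or more. All 8 genes were among the 11511 detected in at least 10% of cells, which form the background. No cell was left out, no doublet caller was run, and every library held between 216177 and 2618538 counts. Neither embryo nor litter nor batch is named, so the cells are 1 sample, nothing was tested and p-values are not given. Binomial intervals are exact (Clopper-Pearson, 95%) and cover counting only, and PCR copies of a molecule were not collapsed.

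Cells were clustered without the 8 genes, the 4 related lists, Col1a1 and Podxl (96 genes), using log2(CPM + 1) of the 1000 genes that varied most over a lowess fit to the mean (fraction 0.3), 10 principal components and Ward's method at 3 clusters. The procedure was tested on simulated data. The genes and lists were chosen with earlier results of these data known. Named beside the 8 genes were, per list, the 3 genes of highest mean CPM, those 2-fold apart between cells of high and low Col1a1 or Podxl, and those detected in no cell. The 3 genes most alike in rank to each gene found in at least 50% of cells, and leading cluster genes, were named too. Some genes under this rule are not reported here. Genes chosen after their values were seen are Syn3, Syn1, Chchd10, Furin and Actc1. Size factors came from scran 1.30.0 (R 4.3.3), and all else from Python 3.11.15 with statsmodels 0.14.6, scikit-learn 1.9.0, SciPy 1.17.1, matplotlib 3.10.9, pandas 2.3.3 and numpy 2.4.6.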

Additional observations from a re-analysis of the deposited data

How the results depend on the processing

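Of 349 values recomputed under other settings, 323 kept their side of the 2-fold mark or moved by less than the spread, 13 moved further, 8 passed the mark and 5 fell back under it. No fold past 2-fold and no rho of 0.3 or more in size changed direction. Smaller values did: 18 of 192 folds crossed 1 (among them Timp1 by Podxl, 0.830 after thinning, and Mmp11 by Col1a1, 0.881), and 6 of 80 rank correlations crossed 0. The number of the 8 genes 2-fold apart by Col1a1 was 2, and 4 with the highest against the lowest tertile of cells. It was 4 with medians of CPM + 1, 1 without the cardiomyocyte-like cells and 1 to 3 when each cell was left out in turn. Of all genes, 7.48% were higher and 6.39% lower between tertiles, and 6.94% and 6.55% with medians. Without the cardiomyocyte-like cells these shares were 5.81% and 4.37%. By Podxl the number of the 8 genes was 3, and 2 to 4 under every setting run. Where all genes were counted too, 5.40% to 11.2% were higher and 7.04% to 24.0% lower by Podxl. Of the 8 genes, 2 had a rho of 0.3 or more in size with Podxl, but 4 without the cardiomyocyte-like cells. Over the 74 cells, 5% and 95% of all genes lay below -0.30 and 0.34 with Podxl, so passing 0.3 was not rare. The same points without the cardiomyocyte-like cells are not given. Between clusters 5 of the 8 genes were 2-fold apart in at least 1 cluster, and 3 with log2(CPM + 10) before clustering. It was 3 to 6 when each cell was left out in turn, because Mmp15, Timp1 and Mmp14 sat near the mark in 10 cells. In single clusters 5.12% to 8.29% of all genes were 2-fold higher and 5.89% to 17.2% lower. The share of all genes past the mark in at least 1 cluster was not counted. Reclustering kept 68 to 73 of 74 cells in place. Without a filter on low counts, 62 and not 37 of the 87 related genes were 2-fold apart by Col1a1, by Podxl or in at least 1 cluster. The share of all genes past the mark in any of these comparisons is not given. In the division by Col1a1 alone, 10.3% of all genes were then higher and 19.1% lower, against 5.01% and 4.63% with the filter. The median protease share was 57.7% with exon-union lengths, 74.4% without length scaling (47.5% in cardiomyocyte-like cells), 59.5% with Reck as an inhibitor and 68.7% after thinning to 354002 counts, which left out 8 cells. Among the 8 genes, detection of Mmp15 changed most with the setting, at 68.9% of cells at 1 count, 10.8% at 10 counts and 6.06% after thinning. Leaving out the cardiomyocyte-like cells in the Col1a1 and Podxl divisions, leaving out single cells, and the other settings for joint detection were chosen after seeing the data. The cause of these changes was not tested. No paired analysis was possible because the series holds a single group.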
